A study of Mus musculus with 12 samples.

Results

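This account covers 43 genes of DNA replication, chosen by name: the MCM helicase and its partners, the origin recognition complex and its licensing factors, the sliding clamp and its loader, the replicative polymerases and primase, the single-strand binding protein RPA, enzymes that finish Okazaki fragments, enzymes of nucleotide supply and regulators of entry into S phase. Of the 43 genes, 41 had a probe named for them on the array, and 40 had enough values to be tested among 14524 genes. Gins2 and Rfc3 had no named probe. Orc2 had a value on 5 of the 12 arrays and was not tested.

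The study measured RNA of mouse 3T3 cells, an established line of embryonic fibroblasts, after treatment with Shld1. Shld1 is a small synthetic compound. It protects from degradation any protein fused to a destabilising domain derived from FKBP12. There were 4 groups of 3 arrays: untreated control cells and cells given Shld1 at 10 nM, 100 nM or 1 µM. On each array the cell sample carried Cy5 and the common mouse reference RNA, from Stratagene, carried Cy3, and no array had the dyes swapped. The sources used here do not give the length of treatment, whether the cells carried a fusion protein, or whether replicates were separate cultures. P-values therefore measure only the spread between these samples, and the number of arrays limits their precision.

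Cells prepare for replication in G1, when the origin recognition complex, Cdc6 and Cdt1 load the ring-shaped MCM helicase onto DNA. Cyclin E with its kinase and the E2F transcription factors, released from the retinoblastoma protein, then drive the cell into S phase, where Cdc45 and the GINS complex activate the helicase and the polymerases follow. Many replication genes are E2F targets and are switched on together in dividing fibroblasts, so their RNA rises and falls with the share of cells that are cycling.

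Because E2F is a shared regulator, promoter sequence is shown for the tested genes whose windows held 2 or more matches to E2F-type letters and for Orc1, a gene far above the reference. Rfc3 also had 2 matches but no named probe, and is not shown. Promoter windows of 300 bases, from 250 before to 50 after the start of the gene, come from RefSeq on build GRCm38.p6, and 36 of the 43 genes matched an entry. No entry matched Mcm4, Ccne2, Rfc2, Prim2, Gins2, Pole or Gins1. The letters searched, on both strands, were TTTCCCGC, TTTCGCGC, TTTGCCGC and TTTGGCGC, and capitals mark the matches. Each sequence reads 5′ to 3′ on the strand of its gene. The Mcm3 window is chr1:20820263-20820562 on the minus strand, Mcm5 is chr8:75109259-75109558 on the plus strand and Mcm6 is chr1:128359656-128359955 on the minus strand. The Mcm7 window is chr5:138171834-138172133 on the minus strand, and Orc1 is chr4:108579204-108579503 on the plus strand.
Mcm3: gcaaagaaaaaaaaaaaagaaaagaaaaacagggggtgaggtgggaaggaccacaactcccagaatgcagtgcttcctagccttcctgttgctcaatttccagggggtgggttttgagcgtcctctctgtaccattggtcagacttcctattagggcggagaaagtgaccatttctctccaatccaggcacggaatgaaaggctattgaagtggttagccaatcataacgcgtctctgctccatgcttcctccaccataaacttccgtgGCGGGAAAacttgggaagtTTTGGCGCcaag
Mcm5: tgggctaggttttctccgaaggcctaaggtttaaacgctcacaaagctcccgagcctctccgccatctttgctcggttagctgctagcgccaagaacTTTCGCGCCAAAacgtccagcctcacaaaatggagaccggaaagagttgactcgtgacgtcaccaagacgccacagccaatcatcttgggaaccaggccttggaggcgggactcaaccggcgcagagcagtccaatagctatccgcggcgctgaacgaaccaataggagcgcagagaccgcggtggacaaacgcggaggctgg
Mcm6: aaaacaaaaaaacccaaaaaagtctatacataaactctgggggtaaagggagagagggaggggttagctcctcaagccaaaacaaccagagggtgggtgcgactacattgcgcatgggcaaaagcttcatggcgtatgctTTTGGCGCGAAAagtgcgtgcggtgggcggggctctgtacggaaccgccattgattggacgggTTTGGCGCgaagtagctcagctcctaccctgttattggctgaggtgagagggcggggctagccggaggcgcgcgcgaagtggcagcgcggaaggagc
Mcm7: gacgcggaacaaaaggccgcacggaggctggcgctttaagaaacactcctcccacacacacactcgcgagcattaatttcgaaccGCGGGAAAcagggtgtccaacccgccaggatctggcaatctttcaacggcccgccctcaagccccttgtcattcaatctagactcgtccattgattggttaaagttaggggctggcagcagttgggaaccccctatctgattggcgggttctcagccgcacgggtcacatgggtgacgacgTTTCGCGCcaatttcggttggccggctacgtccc
Orc1: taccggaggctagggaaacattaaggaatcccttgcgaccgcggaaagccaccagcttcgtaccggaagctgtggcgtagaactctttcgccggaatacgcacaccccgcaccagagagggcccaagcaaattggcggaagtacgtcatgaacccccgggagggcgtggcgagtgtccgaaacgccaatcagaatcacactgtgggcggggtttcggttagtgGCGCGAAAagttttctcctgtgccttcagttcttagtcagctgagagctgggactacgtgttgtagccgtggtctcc

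At least 1 such match lay in the windows of 13 of the 36 replication genes (36.1%) and of 704 of all 27025 genes in the table (2.6%). Of all 32851 windows of this length, 2.26% held one. The windows of Mcm3, Mcm7 and Rfc3 held 2 matches apart from each other, those of Mcm5 held 2 that overlapped, and Mcm6 had 3 in 2 stretches. Orc1, Orc3, Lig1, Pold1, Gins3, Cdt1, Cdc6 and Pola1 had 1 match each. The windows of E2f1, Mcm2 and Pcna held none of these letters. Sequence outside the windows was not searched, so this does not show that the promoters of these genes lack them. The E2f1 window follows 1 annotated start and may lie within the gene. Whether it covers the promoter of E2f1 was not tested. CCAAT boxes, the letters CCAAT on either strand, lay in 23 of the 36 genes (63.9%) and in 41.1% of all genes. A match is a description of sequence and not a binding site measured here.

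All expression values below are log2 ratios of cell sample over reference RNA, with each array centred on its median, so 0 marks the middle probe of an array. The log base of the deposited values was taken as 2, and the direction from the dyes and the signs of fibroblast and leukocyte markers, which are therefore no independent check of it. If the ratios ran the other way, every value above 0 would be below it. Values were blank for 13.3% to 21.0% of the 38784 probes on an array, and fibroblast markers stood high, with 8 of 10 above the reference in control cells and Lum, a matrix proteoglycan, at 4.20. Of 5 leukocyte and macrophage markers, 4 were below the reference, with Ptprc at -2.62, and of 4 epithelial markers Krt8 and Krt18 were below it, while Cdh1 at 0.34 and Epcam at 0.33 lay above 0 and did not pass. Pecam1, the 1 endothelial marker tested, was above it at 0.29. In whole-cell RNA, fewer cycling cells and less RNA per cell cannot be told apart.

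In control cells, replication genes lay more often above the reference than below it. By limma, with adjustment over all genes tested, 18 of the 40 passed as higher (45.0%) beside 26.5% of all genes, and 1 passed as lower (2.50%) beside 19.6% of all genes. Their median log2 ratio was 0.26, beside 0.03 for all genes tested, and 30 of the 40 lay above 0 (75.0% beside 52.6%). Without centring, 12 passed as higher and 3 as lower, so the higher share of their calls went from 94.7% to 80.0%, and that of all genes from 57.5% to 40.5%. Centring moved the median of all genes from -0.12 to 0.03, and the replication genes' median was 0.23 above it either way. Control replicate 1 carried part of the count: without it, 11 passed as higher (27.5%, beside 20.5% of all genes) and 1 as lower (2.50%, beside 13.7%), with a median of 0.18. Since no array had its dyes swapped, a difference in how a probe took up the dyes and a difference between the samples cannot be told apart in these ratios. The counts of calls by role below are to be read beside the 26.5% of all genes called higher and the 19.6% called lower.

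**Figure D1:**
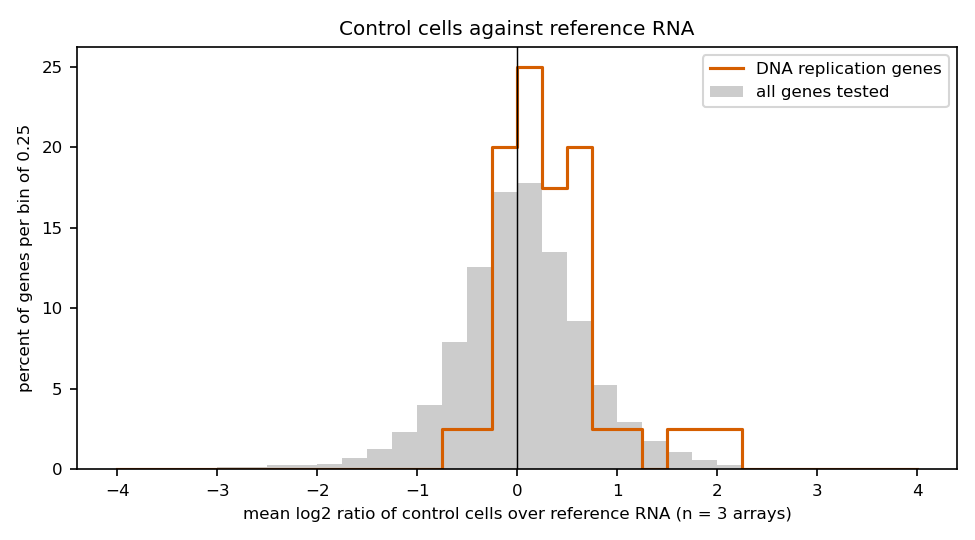
Distribution of the mean log2 ratio of control cells over reference RNA (horizontal axis) as the percent of genes in each bin of 0.25 (vertical axis), for all 14524 genes tested (grey bars) and the 40 replication genes (orange line). Of the 40 replication genes 30 lie above 0, with a tail near 2, and 10 lie below.

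The 4 genes furthest above the reference were Pcna, Orc1, E2f1 and Mcm2. Each was read from 1 probe, so no second probe was there to compare. Pcna encodes the sliding clamp that holds polymerases on DNA. Its log2 ratio was 2.24 and 1.78 on control replicates 2 and 3, with replicate 1 blank. It was 2.13, 1.93 and 2.16 at 10 nM, 2.51 and 2.12 on replicates 1 and 2 at 100 nM, and 1.91 and 1.51 on replicates 2 and 3 at 1 µM. The control mean was 2.01 ± 0.32 (SD, n = 2), at percentile 99.5 of all genes, and the controls overlapped each dose.

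Orc1, the largest subunit of the origin recognition complex, was as high. Its ratio was 2.49, 2.09 and 1.42 in controls, 1.94, 2.06 and 1.59 at 10 nM, 1.97, 1.93 and 1.99 at 100 nM, and 2.08, 2.08 and 1.37 at 1 µM. The control mean of 2.00 ± 0.54 (SD, n = 3) is 4.00-fold over the reference (limma adjusted p = 1.58e-05). The controls spanned nearly the whole range of the treated arrays, and replicate 3 was the lowest in 3 of the 4 groups.

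E2f1, the transcription factor that switches on S phase genes, stood at 1.91, 1.60 and 1.22 in controls, a mean of 1.58 ± 0.35 (SD, n = 3). It was 1.76, 1.51 and 1.41 at 10 nM, 1.95, 1.33 and 1.36 at 100 nM, and 1.98, 1.55 and 0.92 at 1 µM. Its control mean was 2.99-fold over the reference (limma adjusted p = 8.43e-05), and replicate 1 was the highest array in every group.

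The MCM genes encode the 6 subunits of one helicase ring, yet their ratios over the reference, which are not levels, were unequal. Mcm2 stood apart at 1.48, 1.32 and 0.94 in controls, 1.34, 1.25 and 0.55 at 10 nM, 1.03, 1.04 and 0.97 at 100 nM, and 1.42, 0.97 and 0.67 at 1 µM. Its control mean was 1.25 ± 0.28 (SD, n = 3), or 2.37-fold over the reference (limma adjusted p = 1.74e-04). The other 5 MCM genes had control means between 0.25 and 0.40, all below the lowest Mcm2 control array.

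Mcm3 was 0.66, 0.13 and 0.41 in controls, 0.51, 0.54 and 0.36 at 10 nM, 0.66, 0.59 and 0.71 at 100 nM, and 0.43, 0.57 and 0.50 at 1 µM. Mcm4 was 0.35, 0.54 and 0.22 in controls, 0.03, 0.22 and 0.19 at 10 nM, 0.70, 0.36 and 0.47 at 100 nM, and 0.36, 0.25 and 0.01 at 1 µM. Mcm5 was 0.49, 0.02 and 0.23 in controls, 0.33, 0.16 and -0.11 at 10 nM, 0.42, 0.25 and 0.32 at 100 nM, and 0.22, 0.15 and -0.05 at 1 µM. For Mcm3, Mcm4 and Mcm5 the controls overlapped every dose group. Mcm6 was 0.61, 0.11 and 0.33 in controls, 0.26, 0.36 and 0.24 at 10 nM, 0.39, 0.51 and 0.57 at 100 nM, and 0.37, 0.37 and 0.22 at 1 µM. Mcm7 was 0.29, 0.19 and 0.44 in controls, 0.16, 0.42 and 0.41 at 10 nM, 0.46, 0.50 and 0.38 at 100 nM, and 0.57, 0.42 and 0.57 at 1 µM. These 2 overlapped between controls and every dose as well, and Mcm7 was above 0 on all 12 arrays. Of the 6 MCM genes, 5 passed as higher than the reference and Mcm5 did not (0.25, limma adjusted p = 0.105). The calls of Mcm3, Mcm4, Mcm6 and Mcm7 were lost without centring (0.25, 0.22, 0.20 and 0.16) and without control replicate 1 (0.27, 0.38, 0.22 and 0.31), and that of Mcm2 was kept. Without that array the values of Mcm4 and Mcm7 did not fall, and only their adjusted p-values by limma, 0.0563 and 0.0649, missed the threshold. The other control arrays mattered too: Mcm4 lost its call without replicate 2 (0.28), and Mcm6 and Mcm7 without replicate 3 (0.36 and 0.24). Mcm3, Mcm4, Mcm6 and Mcm7 also lost their calls, at unchanged values, when the control arrays were fitted alone.

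**Figure D2:**
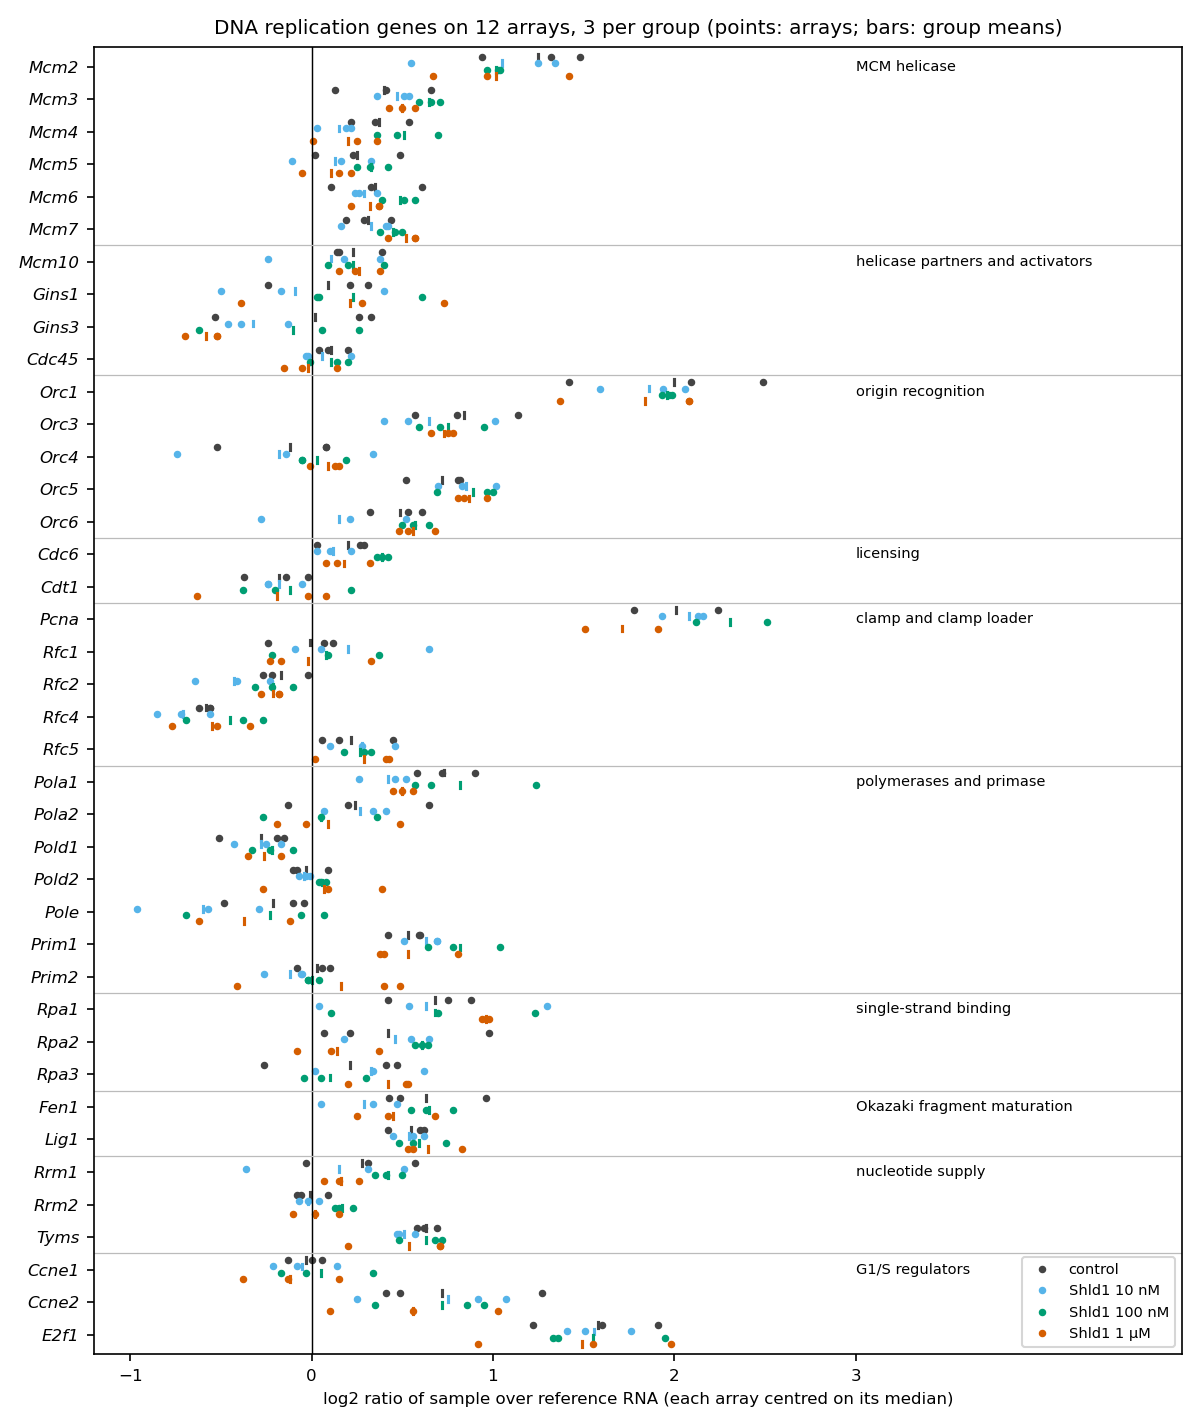
Log2 ratio of sample over reference RNA (horizontal axis) of the 40 tested replication genes (rows, grouped by role) on each array (points) with group means (bars), 3 arrays per group where none is blank. Pcna, Orc1, E2f1 and Mcm2 lie furthest to the right, Rfc4 lies below 0 on every array, and the 4 groups overlap in nearly every row.

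Among the partners of the helicase, Mcm10, Gins1, Gins3 and Cdc45, none of 4 passed against the reference, with means from 0.02 to 0.23. In the origin recognition complex, 4 of 5 tested subunits passed as higher. Besides Orc1 these were Orc3 at 0.84 (SE 0.14), Orc5 at 0.72 (SE 0.11) and Orc6 at 0.49 (SE 0.13), while Orc4 had a mean of -0.12 ± 0.35 (SD, n = 3). A further Orc4 probe, with values on 8 arrays and not tested, read -1.10 in controls. A further Orc3 probe, with values on 5 arrays, had none in controls. It read -0.11 at 100 nM and 0.68 at 1 µM, beside 0.75 and 0.73 on the tested probe. Orc2, with too few values, read 0.36 and 0.06 on control replicates 1 and 3, 0.73 on 10 nM replicate 2, and 0.68 and 0.62 on 100 nM replicates 1 and 3. The 2 licensing factors that bring the helicase to origins did not pass. Cdc6 had a control mean of 0.20. Cdt1, the other, was -0.02, -0.14 and -0.37 in controls, -0.05, -0.24 and -0.24 at 10 nM, -0.20, 0.22 and -0.38 at 100 nM, and 0.08, -0.02 and -0.63 at 1 µM.

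Of the clamp and its loader, Pcna passed as higher and 1 of 4 tested loader subunits as lower. Rfc4, a subunit of the clamp loader, was the 1 replication gene called lower, at -0.56, -0.62 and -0.56 in controls, -0.56, -0.72 and -0.85 at 10 nM, -0.27, -0.69 and -0.38 at 100 nM, and -0.34, -0.52 and -0.77 at 1 µM. Its control mean of -0.58 ± 0.03 (SD, n = 3) puts the reference 1.50-fold over the cells (limma adjusted p = 0.00167). Rfc4 was below 0 on every array and so was Rfc2, another loader subunit, whose control mean of -0.17 did not pass. Rfc1 and Rfc5 had control means of -0.01 and 0.22 and did not pass.

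Of 7 genes for polymerases and primase, 2 passed as higher, a share near the 26.5% of all genes called higher. Both encode subunits of the complex that starts new strands. Pola1, its catalytic polymerase subunit, was at 0.73 (SE 0.13) and Prim1, its primase, at 0.53 (SE 0.12), whereas their partners Pola2 and Prim2 at 0.24 and 0.03 did not pass. Pold1, the catalytic subunit of the lagging strand polymerase, was -0.15, -0.51 and -0.19 in controls, -0.17, -0.25 and -0.43 at 10 nM, -0.23, -0.10 and -0.33 at 100 nM, and -0.17 and -0.35 at 1 µM, where replicate 3 was blank. It was below 0 on each of its 11 arrays, and its control mean of -0.28 missed the threshold (limma adjusted p = 0.0533). It passed as lower without centring, at -0.44, and with arrays scaled to equal spread, at -0.29. Pole, the catalytic subunit of the leading strand polymerase, was -0.10, -0.04 and -0.48 in controls, -0.29, -0.57 and -0.96 at 10 nM, -0.06, -0.69 and 0.07 at 100 nM, and -0.12 and -0.62 at 1 µM, where replicate 3 was blank. Pole did not pass against the reference, and Pold2 had a control mean of -0.03.

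RPA coats the unwound strands. Of its 3 subunits Rpa1 passed, at 0.68 (SE 0.23), and Rpa2 at 0.42 (limma adjusted p = 0.0536) and Rpa3 at 0.21 did not. Rpa1 varied widely at 10 nM and 100 nM and little at 1 µM (SD 0.02), with 0.75, 0.42 and 0.88 in controls, 0.04, 0.54 and 1.30 at 10 nM, 0.11, 0.70 and 1.23 at 100 nM, and 0.94, 0.96 and 0.98 at 1 µM. The enzymes that process and seal Okazaki fragments, Fen1 at 0.63 (SE 0.13) and Lig1 at 0.55 (SE 0.10), both passed as higher.

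The nucleotide genes were mixed. Tyms, which makes thymidylate, passed, with 0.69, 0.62 and 0.58 in controls, 0.47, 0.48 and 0.57 at 10 nM, 0.68, 0.48 and 0.72 at 100 nM, and 0.71, 0.71 and 0.20 at 1 µM. The subunits of ribonucleotide reductase, which makes deoxynucleotides, did not pass. Rrm1 was 0.57, 0.31 and -0.03 in controls, 0.31, 0.51 and -0.36 at 10 nM, 0.50, 0.35 and 0.41 at 100 nM, and 0.15, 0.26 and 0.07 at 1 µM. Rrm2 was 0.09, -0.08 and -0.06 in controls, 0.04, -0.07 and -0.02 at 10 nM, 0.13, 0.15 and 0.23 at 100 nM, and 0.15, 0.02 and -0.10 at 1 µM. Rrm2, as a mean of probes, thus stayed within about 0.23 of the array middle on every array, the narrowest range of the 3. A further Rrm2 probe, with values on 4 arrays and not tested, read -0.96 in controls. Rrm1 had 2 arrays below 0.

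The cyclin E genes differed from each other. Ccne2 was 1.27, 0.49 and 0.41 in controls, 0.92, 1.07 and 0.25 at 10 nM, 0.86, 0.35 and 0.95 at 100 nM, and 1.03, 0.56 and 0.10 at 1 µM. Its control mean of 0.72 ± 0.48 (SD, n = 3) passed (limma adjusted p = 0.0192), but without control replicate 1 it was 0.45 and did not (adjusted p = 0.174). Ccne1 was -0.13, 0.00 and 0.06 in controls, -0.21, -0.08 and 0.14 at 10 nM, -0.17, -0.03 and 0.34 at 100 nM, and -0.38, 0.15 and -0.13 at 1 µM, and did not pass.

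Probes for the same gene did not always give the same ratio. Of 14 replication genes with 2 or more probes measured on all arrays, the median gap between the lowest and the highest probe in controls was 0.39. The gap was over 1 for 3 genes. Tyms probes ran from -0.42 to 1.82, Orc5 probes from 0.17 to 1.26 and Ccne1 probes from -0.56 to 0.51. With a further Tyms probe, blank on 1 array, the Tyms mean was 0.28 and its call was lost (limma adjusted p = 0.135). A second Ccne2 probe, with 11 arrays, gave 2.01 in controls. The ranges of the other genes were -0.05 to 0.27 for Cdc45, 0.01 to 0.38 for Cdc6, 0.41 to 0.80 for Lig1, 0.24 to 0.50 for Mcm4 and 0.12 to 0.75 for Mcm6. They were 0.18 to 0.44 for Mcm7, -0.38 to 0.00 for Rfc2, -0.70 to -0.46 for Rfc4, -0.02 to 0.46 for Rfc5, 0.04 to 0.80 for Rpa2 and -0.03 to 0.00 for Rrm2. Probes lay on both sides of 0 for Tyms, Ccne1, Cdc45 and Rfc5, so for these 4 genes the probes gave ratios of opposite sign.

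Across all 12 arrays, 19 of the 40 genes were above 0 wherever they had a value, 3 were below 0 (Rfc2, Rfc4 and Pold1) and 18 had values on both sides. The 12 tested genes with E2F-type letters in their promoter window had a median control ratio of 0.33, beside 0.26 for the 22 tested genes with a window and no match. These 22 include E2f1, whose window may not cover its promoter. For CCAAT boxes the medians were 0.31 over 21 genes and 0.24 over 13.

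Shld1 at 1 µM gave no call: 0 of 40 replication genes and 0.00% of all genes passed by limma. At an unadjusted p under 0.05 there was 1 replication gene, Gins3, beside 4.26% of all genes. The median change of the 40 genes was -0.02, as for all genes, and 16 lay above 0. The 95% interval of the change stayed within 1 log2 unit of 0 for 39 of the 40 genes (97.5%), beside 83.0% of all genes. For E2f1 the change was -0.09 with an interval from -0.70 to 0.51, for Orc1 -0.16 from -0.75 to 0.43, for Mcm2 -0.23 from -0.76 to 0.31 and for Pcna, on 4 arrays, -0.30 from -0.85 to 0.25. A change of any size inside these intervals is not excluded by these arrays.

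Gins3, a subunit of the GINS complex that activates the helicase, had the largest difference of the 40 genes at 1 µM. Its ratio was 0.33, 0.26 and -0.53 in controls, -0.13, -0.39 and -0.46 at 10 nM, 0.06, -0.62 and 0.26 at 100 nM, and -0.52, -0.70 and -0.52 at 1 µM. The change was -0.60 (SE 0.26, interval -1.17 to -0.03, unadjusted p = 0.0417 and adjusted p = 0.999 by limma). Control replicate 3 was as low as the 1 µM arrays, so the groups overlapped. Among genes measured on all arrays, the next lowest at 1 µM were Rpa2 at -0.28 and Pola1 at -0.23, and the highest were Rpa1 at 0.28, Mcm7 at 0.21 and Rpa3 at 0.21. None of these passed. At this dose fibroblast markers had a median change of -0.29, leukocyte markers of 0.33 and epithelial markers of 0.39, with none called, and their part in the replication values was not tested.

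**Figure D3:**
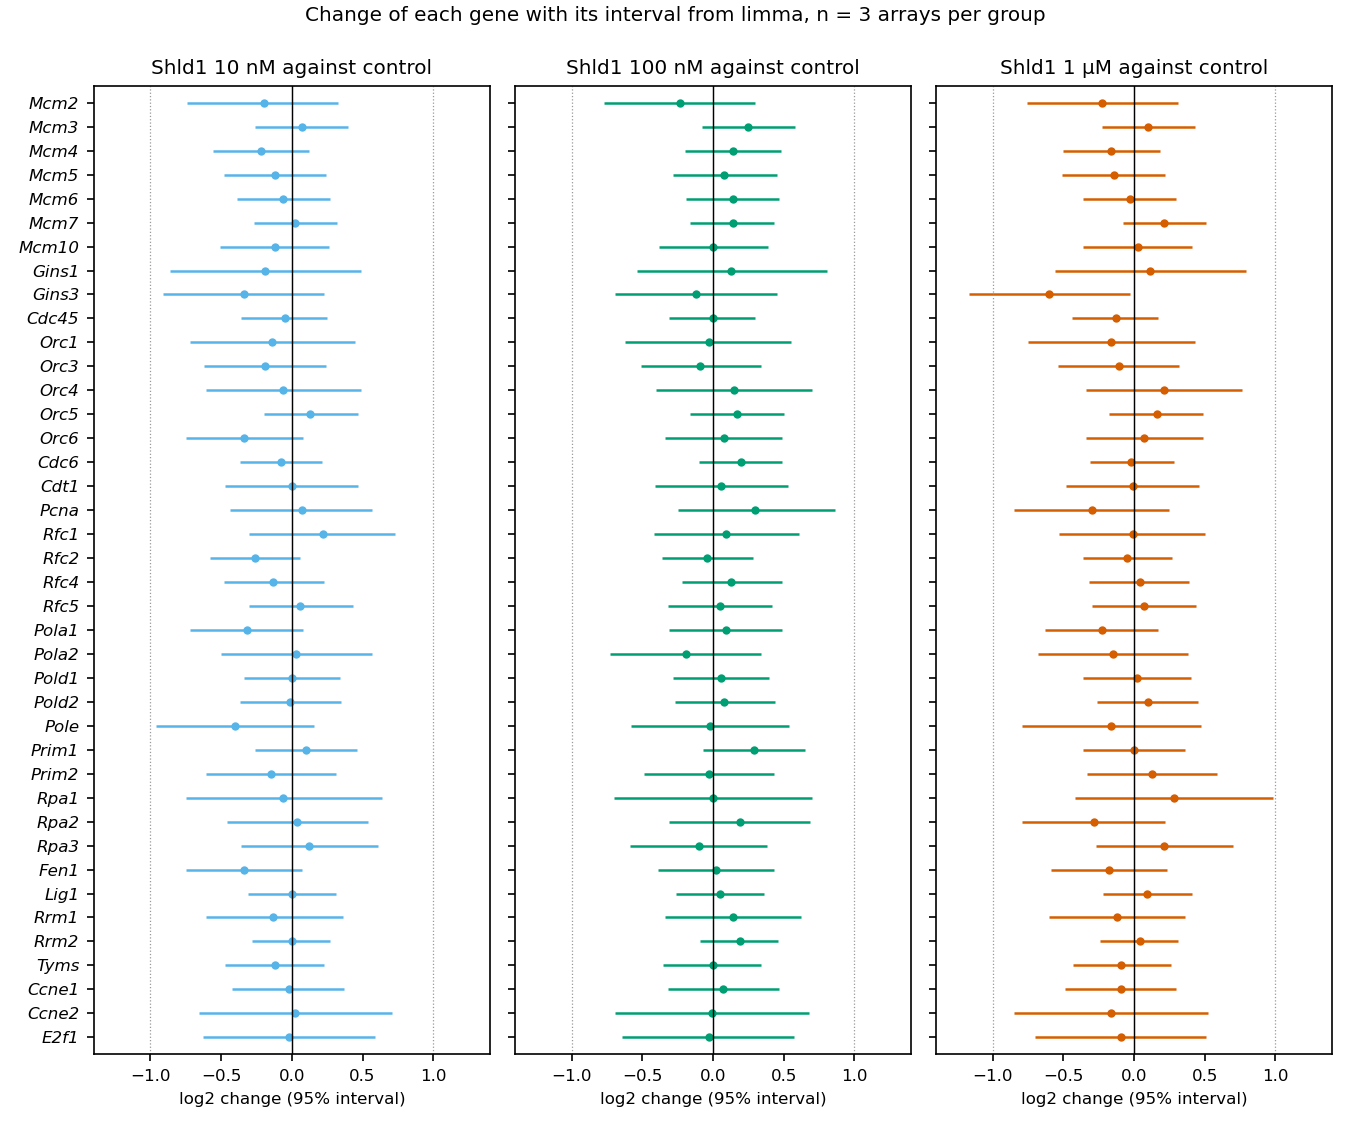
Log2 change against control with its 95% interval from limma (horizontal axis) for the 40 replication genes (rows) at 10 nM, 100 nM and 1 µM, from 3 arrays per group except where Pcna, Pold1 and Pole are blank. Dotted lines mark a change of 1 in either direction, and Gins3 at 1 µM is the row whose interval lies to the left of 0.

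Shld1 at 100 nM gave 0 calls among the 40 genes and 0.00% among all genes. No replication gene was under 0.05 before adjustment, beside 3.02% of all genes. The median change was 0.07, beside 0.02 for all genes, with 27 of 40 above 0 (67.5% beside 53.9%). The highest among genes on all arrays were Prim1 at 0.29, Mcm3 at 0.25 and Cdc6 at 0.20, and the lowest Mcm2 at -0.23, Pola2 at -0.19 and Gins3 at -0.12.

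Shld1 at 10 nM also gave 0 calls and 0.00%, and no replication gene was under 0.05 before adjustment, beside 2.48% of all genes. The median change was -0.06, beside -0.01, and 12 of 40 lay above 0 (30.0% beside 48.4%). Among genes on all arrays, Gins3, Orc6, an origin recognition subunit, and Fen1 were lowest, each at -0.34. Rfc1, Orc5 and Rpa3 were highest at 0.22, 0.13 and 0.12. Pole, with values on 11 arrays, was at -0.40. At both of these doses all 40 intervals lay within 1 log2 unit of 0, as for 84.8% of all genes. The 3 comparisons share the control arrays, so their values are not independent.

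No order by dose appeared in the group averages. The mean over the 37 genes measured on all arrays was 0.38 ± 0.11 in controls, 0.30 ± 0.07 at 10 nM, 0.43 ± 0.06 at 100 nM and 0.34 ± 0.11 at 1 µM (SD, n = 3 each). Groups differed by less than the range over arrays, 0.22 to 0.50. The mean of the doses against control gave 0 calls and 0.00% of all genes, with a median of -0.01. Among genes on all arrays, its lowest values were Gins3 at -0.35, Mcm2 at -0.22 and Fen1 at -0.16. Its highest were Orc5 at 0.15, Mcm3 at 0.14 and Prim1 at 0.13. The linear trend over dose rank also gave 0 calls and 0.00%, with Gins3 at -0.16 per step (SE 0.08), Mcm2 at -0.07 and Rpa2 at -0.07 lowest, and Rpa1 at 0.09, Orc4 at 0.08 and Mcm7 at 0.08 highest. The F test for any difference gave 0 calls and 0.00%, and its smallest unadjusted p-values by limma were 0.139 for Mcm4, 0.143 for Pola1 and 0.144 for Orc6. For the mean, the trend and the F test, none of the 40 genes was under 0.05 before adjustment, beside 436, 517 and 422 of all genes.

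Complete separation of a dose from the controls was about as frequent among replication genes as among all genes measured on all arrays. At 10 nM it held for 2 of 37 (5.41%, beside 6.32%), Pola1 and Tyms, both lower. At 100 nM it held for 3 (8.11%, beside 7.30%), Cdc6, Prim1 and Rrm2, all higher. At 1 µM it held for Rpa1, higher, and Pola1, lower (5.41%, beside 7.48%). Pola1 was 0.58, 0.90 and 0.72 in controls, 0.46, 0.26 and 0.52 at 10 nM, 0.57, 1.24 and 0.66 at 100 nM, and 0.56, 0.50 and 0.45 at 1 µM. Its lowest control array thus lay just above the highest arrays at 10 nM and 1 µM but inside those at 100 nM. Cdc6 was 0.29, 0.27 and 0.03 in controls and 0.39, 0.36 and 0.42 at 100 nM, while Prim1 was 0.42, 0.60 and 0.59 in controls and 1.04, 0.64 and 0.78 at 100 nM. The probes averaged for Rrm2 differed, with changes of 0.14, 0.44 and -0.02 at 100 nM.

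The array titles carry numbers that run in 3 consecutive sets of 4, with 1 array of each group in a set, and the sets are the replicate numbers. This comparison was chosen after the values were seen. Within a set, a dose minus its control had the same sign in all 3 sets for 9 of 39 genes at 10 nM (2 up and 7 down; 23.1%, beside 21.9% of all genes). It did so for 5 of 39 at 100 nM (all up; 12.8%, beside 21.1%) and 6 of 37 at 1 µM (3 up and 3 down; 16.2%, beside 23.6%). None of these shares was far above that of all genes. In a limma fit with group and set as terms, the third set was below the first for 29 of 40 replication genes (72.5%, beside 51.2% of all genes), with a median of -0.12 beside -0.01. None of the 40 passed after adjustment, beside 0.0138% of all genes (2 genes). At an unadjusted p under 0.05, 9 were lower (22.5%, beside 6.95% of all genes) and 4 of 40 higher (also above the 7.15%). That count was not stable: it was 4 lower and 4 higher without centring, 2 and 2 without the control arrays, 5 and 1 without the 10 nM arrays, 8 and 1 without the 100 nM arrays, 4 and 2 without the 1 µM arrays, and 5 and 4 with either equal spread or quantile normalisation.

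The lower 9 were E2f1 at -0.67 (SE 0.15), Ccne2 at -0.59, Mcm2 at -0.54, Orc1 at -0.53, Rpa2 at -0.41, Cdt1 at -0.36, Rrm1 at -0.36, Fen1 at -0.32 and Mcm10 at -0.30. The smallest adjusted p, that of E2f1, was 0.132. The higher 4 were Rpa1 at 0.64, Rfc1 at 0.37, Ccne1 at 0.32 and Rfc5 at 0.28. Of the MCM genes, Mcm3, Mcm6 and Mcm7 hardly moved, at -0.07, -0.07 and 0.08. Mitosis genes, a separate list, were below 0 for 17 of 17, beside 51.2% of all genes, with a median of -0.30. At an unadjusted p under 0.05 by limma 3 of them were lower (17.6%, beside 6.95% of all genes), and none passed after adjustment. With equal spread, with quantile normalisation or without the control arrays, 16 of the 17 were below 0. The spread of an array, its median absolute deviation, was 0.65 to 0.75 in the first set and 0.59 to 0.69 in the third. With arrays scaled to equal spread, the shift of E2f1 was -0.49, that of Orc1 -0.32 and that of Mcm2 -0.41, and 5 genes were lower. With quantile normalisation Orc1 was at -0.17, Mcm2 at -0.36 and E2f1 at -0.39. The shifts of E2f1, Orc1 and Mcm2 were thus smaller under both of these scalings than with centring alone. Ccne2 was at -0.52 and -0.50 under them, and Rpa1, further from 0 than with centring alone, at 0.75 and 0.77.

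**Figure D4:**
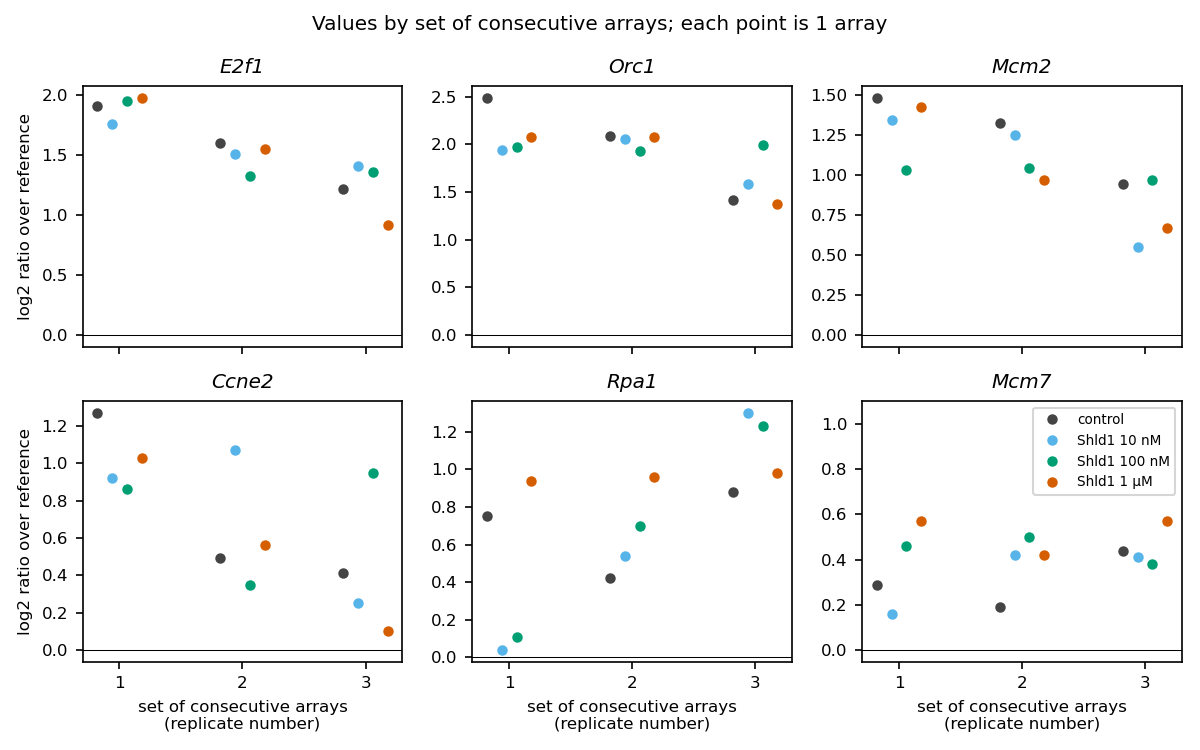
Log2 ratio over the reference (vertical axis) of 6 replication genes by set of consecutive arrays (horizontal axis), 1 point per array, coloured by group. E2f1 and Mcm2 are lower in the third set than in the first in every group, Mcm2 only slightly at 100 nM. Orc1 and Ccne2 are lower in every group except 100 nM. Rpa1 is clearly higher in the third set at 10 nM and 100 nM and little changed in controls and at 1 µM, and Mcm7 shows little difference.

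After each group's mean was removed, several replication genes varied over the 12 arrays together with E2f1. The arrays share sets and scaling, so this is a description. The median correlation with E2f1 was 0.40 over 36 genes, beside 0.03 over 12983 genes, and was over 0.5 for 15 of the 36 (41.7%, beside 18.6%). The closest were Rfc4 at 0.77, Orc1 at 0.76, Ccne2 at 0.75, Mcm2 at 0.75 and Tyms at 0.71, and the most opposed was Rfc5 at -0.78. With the array set removed as well, the median was 0.21, and no value over all genes was computed to set beside it. Tyms then stood at 0.94, Mcm2 at 0.05 and Fen1, before at 0.67, at 0.07. Some genes changed sign: Ccne1 went from -0.56 to 0.57, Rpa1 from -0.48 to 0.57 and Mcm10 from 0.59 to -0.48. With group and set means both removed, far fewer than 12 independent values remain. Single correlations and these changes of sign are therefore imprecise. The median correlation among all pairs of replication genes was 0.13.

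Related genes around replication were read from 5 further lists, and none of their genes passed at any dose. Their counts against the reference are of genes that passed, to be read beside the 26.5% of all genes called higher and the 19.6% called lower. Of 27 other replication factors, 23 were tested, 12 had a mean above 0 in controls and 8 passed as higher than the reference: Pole2, a polymerase subunit, at 1.93, Topbp1 at 1.11, Clspn at 0.94, Rnaseh2b at 0.76, Pole4 at 0.69, Top1 at 0.42, Timeless at 0.38 and Pole3 at 0.36. Passing as lower were Pold4 at -0.86, Gmnn, the inhibitor of Cdt1, at -0.74 and Mcm9 at -0.65. Their median change was -0.01 at 1 µM, -0.06 at 100 nM and -0.08 at 10 nM. The extremes at 1 µM were Chtf18 at -0.60, Cdc7 at -0.43, Mcm9 at 0.47 and Wdhd1 at 0.31.

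Of 12 genes of chromatin assembly behind the fork, 11 were tested and 6 were higher in controls, Slbp at 1.30, Hells at 0.97, Dnmt1, which copies DNA methylation, at 0.91, Asf1b at 0.56, Uhrf1 at 0.53 and Chaf1a at 0.36. None was lower. Their median changes were -0.06 at 1 µM, 0.00 at 100 nM and -0.05 at 10 nM, with Uhrf1 at -0.23, Asf1b at -0.08, Asf1a at 0.33 and Rbbp4 at 0.20 at 1 µM. Of 16 further genes of nucleotide supply, 13 were tested. Mthfd1 at 0.50, Ctps at 0.45, Umps at 0.37 and Cad at 0.28 were higher in controls, and Samhd1, which degrades deoxynucleotides, at -0.65 and Rrm2b at -0.48 were lower. Their median changes were -0.04 at 1 µM, 0.09 at 100 nM and -0.06 at 10 nM. At 1 µM Ctps was at -0.24, Cad at -0.20, Mthfd1 at 0.15 and Rrm2b, the alternative reductase subunit, at 0.58 (SE 0.22).

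Of 27 further E2F, retinoblastoma and cyclin regulators, 26 were tested and lay on both sides of the reference. Higher were E2f5 at 1.53, Cdk4, the kinase of cyclin D, at 1.41, Cdc25a at 0.81, Tfdp1 at 0.71, Ccnd3 at 0.70, E2f3 at 0.43, E2f4 at 0.42 and Cdkn1b at 0.36. Lower were Cdk6 at -1.72, Rb1, the retinoblastoma protein, at -1.61, Cdkn2a at -0.94, Cdkn1a at -0.78, Tfdp2 at -0.69, Rbl1 at -0.49 and Cdkn1c at -0.41. Their median changes were -0.05 at 1 µM, 0.00 at 100 nM and -0.03 at 10 nM, with Rbl1 at -0.55, Myc at -0.29, Cdkn2a at 0.31 and Ccnd2 at 0.27 at 1 µM. Of 20 mitosis genes, 17 were tested. Kif23 at 1.54, Aurkb at 1.27, Cenpa at 1.03, Kif11 at 1.01, Foxm1 at 0.99, Cdk1 at 0.87, Plk1 at 0.83 and Cdc20 at 0.43 were higher, and Ccnb2 at -0.81, Bub1 at -0.61 and Aurka at -0.53 were lower. Their median changes were -0.03, -0.04 and -0.09 at 1 µM, 100 nM and 10 nM, with Bub1b at -0.23, Cdk1 at -0.21, Kif11 at 0.18 and Bub1 at 0.12 at 1 µM.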

How the data were processed

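Expression of 3T3 cells was measured on 12 arrays of 2 colours, 3 in each of 4 groups. The values are the deposited log2 ratios per probe made by the authors. The labels give Cy5 to the sample and Cy3 to the reference, and sample over reference was inferred from these dyes and from fibroblast and leukocyte markers, with a log base of 2 assumed. The sources used here do not give how the authors corrected background, normalized or filtered spots, and scale, centring and direction are unstated. Scanner intensities were not analysed here. Per array, 30649 to 33615 of the 38784 probes carried a value, and array medians were -0.20 to -0.10 as deposited.

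Probes were named through the platform annotation updated by a RefSeq table: 26173 had 1 symbol, 28 several and 12583 none. A probe shared by Orc4 and another gene was not used. The median of each array was set to 0. The 30357 probes kept had values on 2 or more of the 3 arrays of each group. A gene's value averaged its probes without blanks. If it had no such probe, the one with fewest blanks was taken. limma 3.58.1 in R 4.3.3 was fitted to all genes with group as the only term, with Benjamini-Hochberg adjustment over all genes and a threshold of 0.05. The control mean was tested against 0, and each dose, the mean of doses, a trend over dose rank and an F test against control. The fit was tested on simulated data.

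The genes and lists were chosen with earlier results of these data known. Named are genes that passed, the 3 highest and 3 lowest at each dose, for the mean of doses and for the trend, the 3 smallest p-values of the F test, values by array for the genes listed by name and the 4 highest and 4 lowest against the reference, and from other lists the 2 highest and 2 lowest at 1 µM, in each case among genes on all 12 arrays where changes with dose are ranked. Arrays shown for Gins3, Pola1, Rpa1, Cdc6 and Prim1 were added after their values were seen. Samples were grouped by the labels. Same-numbered arrays have consecutive array numbers in the titles, but the labels name no shared culture, day or batch. Their correlations were -0.10 to 0.26, over 0.1 in 10 of 18 pairs and not in all, so the number was kept out of the fit and used as a block in an alternative. Alternatives were centring, scaling, quantile normalization, filters, probe rules, blocks, robust variance, single groups and leaving out each array. Plots were made in Python 3.11.15 with matplotlib 3.10.9.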

Additional observations from a re-analysis of the deposited data

How the results depend on the processing

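Every dose comparison gave 0 calls under every alternative run. Leaving out each array in turn, the median change of the replication genes ran from -0.08 to 0.04 at 1 µM, 0.01 to 0.13 at 100 nM, -0.12 to 0.01 at 10 nM, -0.07 to 0.06 for the mean of doses and -0.01 to 0.03 for the trend.

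Against the reference, the median of the replication genes was 0.11 without centring and 0.18 to 0.36 leaving out each array. Genes called lower were 3 without centring, 2 with equal spread and 4 in a fit over single probes, against 1 as reported. Leaving out each array, 12 to 19 replication genes were called, 11 to 18 of them higher, and 4940 to 6843 of all genes. Without control replicate 1 the count was 12, with 11 higher. Of 1023 comparisons of a named value with an alternative, 1004 kept their side of the threshold, 17 lost the call and 2 gained it. Called values reversed direction in 0 comparisons. Values that were not called could change sign when an array was left out. Every lost or gained call was of a value against the reference. The named changes with dose, called under no alternative, are counted among the 1004. The lost calls were those of Mcm3, Mcm4, Mcm6, Mcm7, Tyms and Ccne2, and the gained ones Pold1. The cause was not tested.

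With the replicate block, 20 replication genes were called against the reference, 19 higher and 1 lower, and 0 at any dose. Of the 12 arrays, 9 correlated best with an array of their own number. The labels give same-numbered arrays consecutive array numbers but do not say what they share. Quantile normalization was not run against the reference, and fits of the compared groups alone could not be made for the mean of doses, the trend or the F test. Signal over background is unknown, so no filter on dim spots could be tried.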
